A study of Oryza sativa with 6 samples.

Results

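The 31 MADS-box genes described here are those that the annotation of the Affymetrix rice genome array pairs, by a probe set matched to 1 gene, with a symbol or synonym of MADS or OsMADS and a number. They were 31 of 17905 genes measured, and each was read from the brightest of its probe sets over the 6 arrays. Transcripts were measured in whole seeds at the S3 stage (5 to 10 days after pollination) of rice (*Oryza sativa* subsp. indica, variety PB1). The 3 MADS29_KD samples came from plants with an RNA interference construct against *OsMADS29*, and the 3 WT samples from wild-type plants of the same variety. The sources used here give neither the promoter of the construct nor the transformed lines that went onto the arrays. The labels call the samples biological replicates without naming separate plants or lines. The p-values therefore reflect only how far these samples spread, which may be technical.

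MADS-box transcription factors bind DNA as dimers and assemble into larger complexes, so that the combination of factors present in a cell is thought to set which targets are used. In flowers the A, B, C, D and E classes specify the organs, with D-class factors acting in ovules and E-class factors serving as partners of the others. The B-sister class, to which *OsMADS29* belongs, is known for its role in the ovule and the developing seed. Other branches act outside the flower: SVP-like and SOC1-like genes in flowering time and meristem phase, ANR1-like and AGL12-like genes in roots and stress responses. The members covered 10 such branches of the MIKC type, and *OsMADS31*, the remaining B-sister gene of rice, had no match by name.

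Across probe sets, which are not independent replicates, r was 0.990 to 0.998 within the groups and 0.955 to 0.963 between them. The deposited values are intensities on a linear scale, with a median of 6.05 to 6.17 on the 6 arrays. The 95th percentile of 74 probe sets foreign to rice, used here as the background level, was 7.21 to 7.59 in MADS29_KD and 6.86 to 6.96 in WT. On MADS29_KD replicate 1 and WT replicate 2 the probe set for the 5′ end of actin was at background (6.74 and 5.01), while it read 58.0 and 69.7 on the other MADS29_KD arrays and 73.2 and 85.8 on the other WT arrays. The 5′ probe set of GAPDH was lower on the same 2 arrays (77.7 and 134, against 647 to 725 on the others). The 3′ probe sets of actin (1310 to 2122) and GAPDH (2652 to 3190) were bright on all arrays. These are control probe sets of the array, and the cause of the difference was not tested. Single markers of seed tissues differed between the groups, beside 10.9% of all genes that rose and 14.8% that fell. Of all genes with an array over intensity 8, 34.7% were called in either direction. Endosperm markers summed to 45367 to 46834 in MADS29_KD against 26794 to 28240 in WT (5 of 6 rose, none fell, all detected). That rise came mostly from *RAG2* (mean 12136 in MADS29_KD against 3391 in WT) and *RAG1* (4413 against 184). *Wx*, the brightest of them in WT, was not called (10421 against 9960, log2 difference 0.07). Embryo and aleurone markers summed to 4551 to 4803 in MADS29_KD against 326 to 406 in WT (3 of 5 rose, all detected). The embryo and aleurone sums came mostly from *RAB21* (mean 2216 in MADS29_KD against 12.1 in WT) and *EM* (2309 against 210). *OsVP1* also rose, while *OSH1* (log2 difference −0.11) and *ROC1* (−0.34) were lower in MADS29_KD without a call. The 3 green pericarp markers summed to 4454 to 4793 in MADS29_KD against 8190 to 8658 in WT (1 rose and 1 fell, all detected). That sum came mostly from *CAB2R*, which fell (mean 3452 in MADS29_KD against 7897 in WT). *OsrcaA1* went the other way and rose (962 against 276), and *RBCS* was not called (195 against 228). Of the 5 anther and pollen markers 4 were at or under intensity 8 on every array. The other, *DTM1*, rose by 0.90 ± 0.14 on the log2 scale (adjusted p = 0.0204), a call lost on leaving out each single array except MADS29_KD replicate 2 (adjusted p up to 0.0762). In whole seeds a smaller share of the cells that express a gene cannot be told apart from less RNA per cell, and the part of tissue composition in the results below was not tested.

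Of the 31 genes, 4 rose (12.9%), 2 fell (6.45%) and 25 did not pass the test (limma with Benjamini-Hochberg adjustment over all 57194 probe sets, adjusted p under 0.05). Among all 17905 genes 10.9% rose and 14.8% fell. In either direction 6 of the 31 genes were called (19.4%), against 25.7% of all genes and 11.3% of all probe sets. *OsMADS27*, *OsMADS2*, *OsMADS8* and *OsMADS7* rose, and *OsMADS29* and *OsMADS58* fell. At least 2-fold changes were found for *OsMADS27* and *OsMADS29* alone, 1 gene in each direction, beside 4.93% of all genes up and 5.93% down. The median log2 difference (MADS29_KD minus WT) was 0.02 over the 31 genes and 0.01 over all genes. Among genes with an array over intensity 8, this median was 0.02 for the members and −0.09 for all genes. The 2 groups of arrays were fully apart for 15 of the 31 genes (48.4%), and for 59.1% of all genes. Of the 21 members with an array over intensity 8, 6 were called (28.6%), and of all genes with such an array 34.7%. No share of the family was tested against that of all genes.

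**Figure D1:**
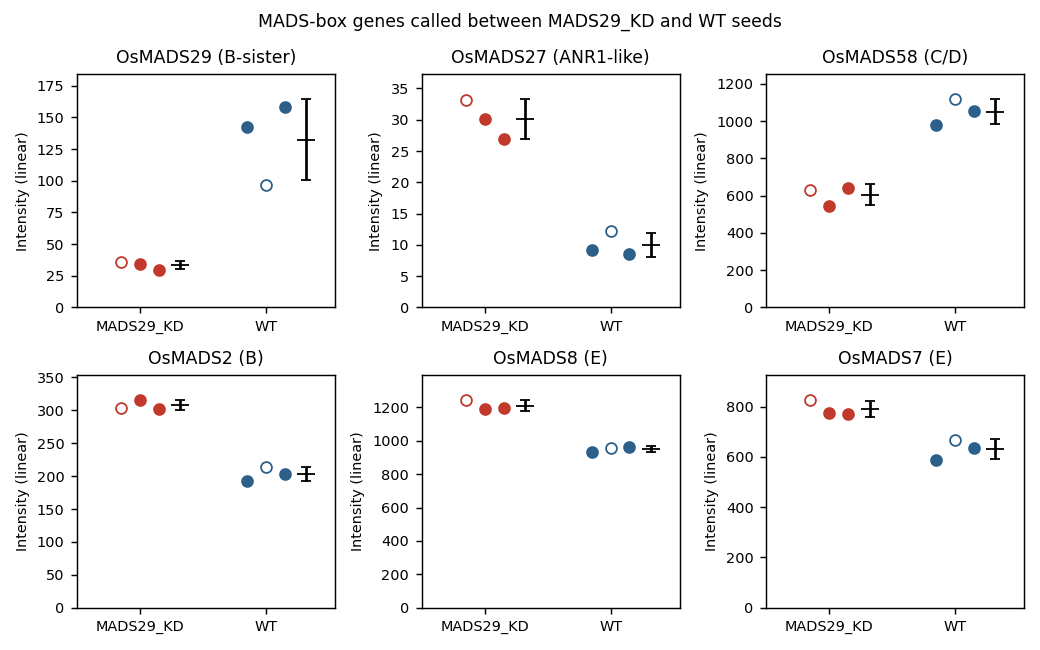
Intensity on a linear scale (vertical axes) of the 6 MADS-box genes that passed the test, with MADS29_KD arrays in red on the left, WT arrays in blue on the right, and the mean with its SD (n = 3) in black. Open circles mark MADS29_KD replicate 1 and WT replicate 2, whose 5′ actin signal was at background. The groups did not overlap for any of the 6 genes, which were chosen for passing the test on these same arrays. The fold between the means was highest for *OsMADS29* and *OsMADS27*.

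The silenced gene itself (*OsMADS29*, gene ID 4328443) had intensities of 35.9, 34.4 and 29.9 in MADS29_KD seeds, against 143, 96.8 and 158 in WT seeds. The MADS29_KD values lay close together, and the lowest WT value was that of replicate 2. Its mean was 33.4 ± 3.17 in MADS29_KD and 132 ± 31.8 in WT (SD, n = 3 each), a log2 difference of −1.96 ± 0.21 (SE, adjusted p = 0.00725) that left 25.7% of the WT level on the log scale. The exact permutation test (two-sided) had p = 0.10, which is as low as 3 arrays against 3 can go. Without MADS29_KD replicate 1 and WT replicate 2, the difference was −2.23 ± 0.11 (adjusted p = 0.00946). The labels were thus matched by the transcript on every array.

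*OsMADS30*, the other B-sister gene with a probe set, had intensities of 5.64, 5.71 and 5.79 in MADS29_KD and 5.59, 5.61 and 5.57 in WT. All these values were under the background level of their array, so no fold is given for it. Of the 2 B-sister genes measured, *OsMADS29* was thus the one with a signal above background in these seeds.

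The highest rise of the family was that of *OsMADS27* (gene ID 4329771), an ANR1-like gene. ANR1 of *Arabidopsis* controls the growth of lateral roots toward nitrate, and *OsMADS27*, *OsMADS23* and *OsMADS57* are known targets of the microRNA miR444 in rice. *OsMADS27* had intensities of 33.2, 30.2 and 26.9 in MADS29_KD, against 9.24, 12.2 and 8.57 in WT, where it was just above background. It was 3.03-fold higher in MADS29_KD (log2 difference 1.60 ± 0.17, 95% interval of the fold 2.25 to 4.08, adjusted p = 0.00643). It also rose when the 2 arrays with low 5′ actin signal were left out (1.68, adjusted p = 0.0101). A further probe set of *OsMADS27* was dimmer, with 8.10, 11.3 and 8.38 in MADS29_KD and 7.81, 7.92 and 7.45 in WT. Its groups did not overlap either, but the difference of 0.24 ± 0.14 missed the threshold (adjusted p = 0.27). The other ANR1-like genes, *OsMADS23*, *OsMADS25* and *OsMADS57*, stayed between 5.82 and 6.36 on all arrays, under the background level.

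Among the C- and D-class genes, *OsMADS58* fell. *OsMADS58* and *OsMADS3* are the C-class genes of rice, which act in stamens, carpels and the end of floral meristem growth, and *OsMADS13* and *OsMADS21* are the D-class genes, of which *OsMADS13* specifies ovules. *OsMADS58* (gene ID 4338067) had intensities of 632, 543 and 642 in MADS29_KD, against 982, 1117 and 1052 in WT. The highest MADS29_KD value was well under the lowest WT value. It was 1.74-fold lower in MADS29_KD (log2 difference −0.80 ± 0.09, adjusted p = 0.00742). Over the 4 arrays with high 5′ actin signal the difference was −0.78, with an adjusted p of 0.0542.

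*OsMADS3* had intensities of 50.0, 91.8 and 92.8 in MADS29_KD and 65.7, 47.1 and 73.4 in WT. Its log2 difference of 0.30 had a 95% interval of −0.54 to 1.15, so a change of the size seen for *OsMADS58*, in the lower direction, lay outside that interval. *OsMADS13* had 38.1, 171 and 162 in MADS29_KD and 124, 26.6 and 121 in WT. *OsMADS21* had 67.7, 179 and 148 in MADS29_KD and 107, 86.5 and 116 in WT. In all 3 genes the lowest value of each group was that of MADS29_KD replicate 1 or WT replicate 2. The log2 differences were 0.47 (−1.98 to 2.92) for *OsMADS13* and 0.25 (−0.83 to 1.32) for *OsMADS21*, intervals too wide to place either gene.

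B-class genes, which specify lodicules and stamens, were all measured above intensity 8. *OsMADS2* (gene ID 4325001), a PISTILLATA-like gene, had intensities of 304, 316 and 303 in MADS29_KD, against 193, 215 and 203 in WT. The replicates of each group were close, and *OsMADS2* was 1.51-fold higher in MADS29_KD (log2 difference 0.60 ± 0.05, 95% interval 0.48 to 0.72, adjusted p = 0.00268). *OsMADS4*, its PISTILLATA-like paralogue, had 15.2, 15.4 and 12.6 in MADS29_KD and 16.1, 24.7 and 15.4 in WT, a difference of −0.35 (−0.92 to 0.21, adjusted p = 0.281). *OsMADS16*, the APETALA3-like partner of both, had 219, 263 and 283 in MADS29_KD and 248, 230 and 245 in WT, a difference of 0.07 (−0.20 to 0.35, adjusted p = 0.582). The intervals of *OsMADS4* and *OsMADS16* thus both ended below the lower bound for *OsMADS2*.

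The E-class genes, the SEPALLATA-like partners of the other floral classes, held 2 of the 4 risers. *OsMADS8* (gene ID 4347517) had intensities of 1246, 1187 and 1196 in MADS29_KD, against 933, 955 and 964 in WT. It was 1.27-fold higher (log2 difference 0.35 ± 0.02), and with such close replicates it had the smallest adjusted p of the family (0.00208). *OsMADS7* (gene ID 4346134), its closest paralogue, had 828, 773 and 772 in MADS29_KD, against 589, 666 and 637 in WT. It was 1.26-fold higher (0.33 ± 0.06, adjusted p = 0.0296). *OsMADS7* kept its direction but lost its call on leaving out each single array except WT replicate 2 (adjusted p up to 0.108), and over the 4 arrays with high 5′ actin signal (0.0571).

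*OsMADS1*, which acts in the lemma, the palea and the floral meristem, had intensities of 1202, 1339.7 and 1240.4 in MADS29_KD, against 1144, 1155 and 1136 in WT. The groups did not overlap, but the log2 difference of 0.14 ± 0.04 missed the threshold (adjusted p = 0.127). It passed after quantile normalization (0.20, adjusted p = 0.0293). *OsMADS5* had 18.7, 12.0 and 21.3 in MADS29_KD and 18.8, 19.8 and 22.1 in WT, a difference of −0.26 (−0.89 to 0.37, adjusted p = 0.42). *OsMADS34*, known for its role in panicle branching, was at the edge of detection, with 8.27, 8.13 and 8.45 in MADS29_KD and 7.96, 8.07 and 8.51 in WT. Its difference was 0.02 (−0.06 to 0.10), so that within the E class the shifts of called and uncalled genes ran from −0.26 to 0.35.

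**Figure D2:**
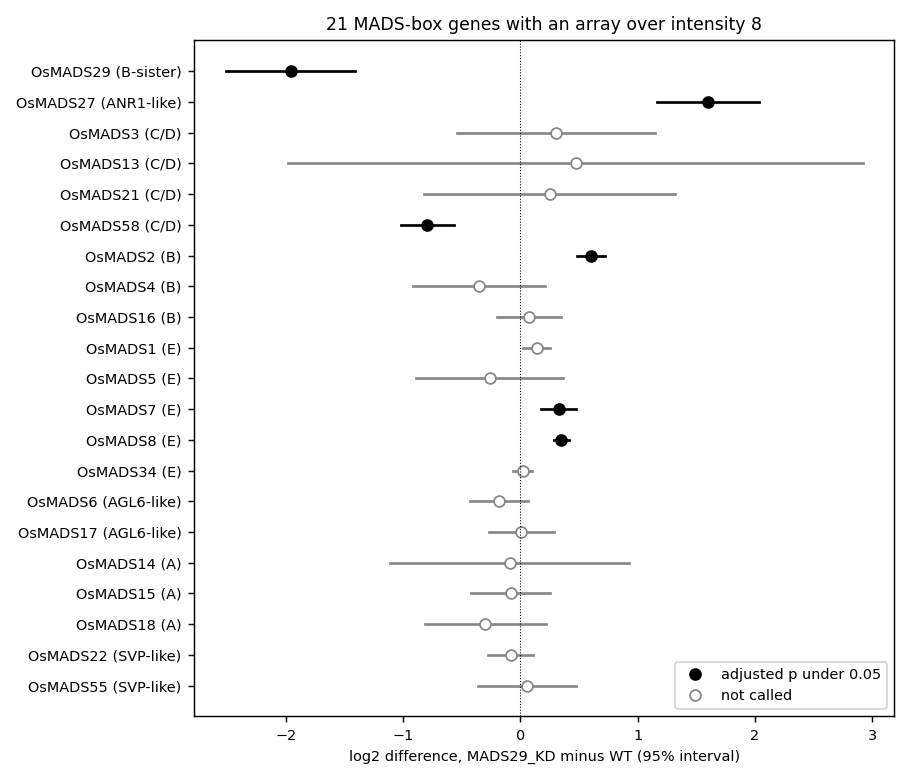
Log2 difference between MADS29_KD and WT (horizontal axis) with its 95% interval for the 21 MADS-box genes with an array over intensity 8, named on the vertical axis with their class. Filled points passed the test and open points did not. *OsMADS29* at −1.96 and *OsMADS27* at 1.60 stand apart, and the intervals of *OsMADS13*, *OsMADS14* and *OsMADS21* are the widest.

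In the fit without a block, none of the AGL6-like, A-class and SVP-like genes above intensity 8 passed the test. The AGL6-like gene *OsMADS6*, which is known to act in floral organs and in the endosperm, had intensities of 54.9, 45.0 and 54.4 in MADS29_KD and 56.1, 56.8 and 61.5 in WT. Its difference of −0.18 (−0.43 to 0.06, adjusted p = 0.236) left the groups just apart. *OsMADS17*, the paralogue of *OsMADS6*, had 27.5, 26.4 and 24.0 in MADS29_KD and 26.4, 28.7 and 22.6 in WT, a difference of 0.01 (−0.27 to 0.29).

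The A-class genes are AP1/FUL-like, and *OsMADS14* and *OsMADS15* act in the floral transition of the meristem. *OsMADS15* had intensities of 269, 231 and 212 in MADS29_KD and 232, 288 and 235 in WT, a difference of −0.09 (−0.42 to 0.25). *OsMADS18* had 30.4, 23.0 and 24.5 in MADS29_KD and 25.3, 38.7 and 32.6 in WT, a difference of −0.30 (−0.81 to 0.22). *OsMADS14* had 36.9, 69.0 and 67.8 in MADS29_KD and 74.1, 39.0 and 72.7 in WT, a difference of −0.09 (−1.11 to 0.92). The groups overlapped for all of them, and *OsMADS20* was at 5.14 to 5.20 on every array.

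SVP-like genes repress the floral transition in several species and act in meristem identity and brassinosteroid responses in rice. *OsMADS22* had intensities of 285, 254 and 247 in MADS29_KD and 260, 292 and 280.4 in WT, a difference of −0.08 (−0.27 to 0.11). *OsMADS55* had 10.8, 11.3 and 9.28 in MADS29_KD and 11.6, 8.18 and 10.6 in WT, a difference of 0.06 (−0.36 to 0.48). Both pairs of groups overlapped. *OsMADS47* was at 5.73 to 6.20 on all arrays.

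In all, 10 members were at or under intensity 8 on all 6 arrays, with values of 5.14 to 7.43. They were *OsMADS20*, *OsMADS23*, *OsMADS25*, *OsMADS26*, *OsMADS30*, *OsMADS33*, *OsMADS47*, *OsMADS50*, *OsMADS56* and *OsMADS57*. Both SOC1-like genes (*OsMADS50* and *OsMADS56*, which act in flowering time) and both AGL12-like genes (*OsMADS26* and *OsMADS33*) were among them. The nearest to the limit were *OsMADS50*, just under it at 7.43 in MADS29_KD replicate 2, and *OsMADS34*, just over it as given above. The log2 differences of the 10 genes ran from −0.03 to 0.05 and none was called. Their groups did not overlap for 6 of the 10, beside 59.1% of all genes. Medians over the foreign probe sets separated the groups as well, at 2.47 to 2.49 on the log2 scale in MADS29_KD and 2.46 to 2.47 in WT. A signal at background limits what the array could detect and does not show that a transcript was absent.

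Some members varied more within the groups than between them. The highest array was less than 1.5-fold above the lowest in both groups for 13 of the 21 genes with an array over intensity 8, while *OsMADS13* spanned 38.1 to 171 within MADS29_KD and 26.6 to 124 within WT. For *OsMADS13* and *OsMADS14* this spread followed the 5′ actin signal. Fitted beside the groups, the difference between the 2 arrays with low and the 4 arrays with high 5′ actin signal was −2.17 ± 0.03 (log2, adjusted p = 0.00711) for *OsMADS13* and −0.90 ± 0.01 (adjusted p = 0.00711) for *OsMADS14*. No other member passed that test, beside 0.33% of all genes lower and 0.81% higher in the low arrays. *OsMADS3* (−0.72 ± 0.10, adjusted p = 0.0998) and *OsMADS21* (−0.82 ± 0.25, adjusted p = 0.364) had values in the same direction. The opposite direction was seen, without a call, for *OsMADS4* (0.39), *OsMADS18* (0.39), *OsMADS27* (0.34) and *OsMADS15* (0.29).

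With that signal as a block 8 of the 31 genes were called, beside 32.2% of all genes, and over the 4 high arrays 5, beside 24.4%. With the block, *OsMADS13* (0.47, adjusted p = 0.0039) passed as higher in MADS29_KD and *OsMADS14* (−0.09, adjusted p = 0.0249) as lower. *OsMADS13* was higher in MADS29_KD by 0.52 between the low arrays and by 0.44 between the means of the high arrays, and it also passed in the 4 high arrays alone (adjusted p = 0.0222). For *OsMADS14* the corresponding differences were −0.08 and −0.10, and it did not pass in the 4 high arrays (adjusted p = 0.0881). *OsMADS21* had −0.35 between the low arrays and 0.55 between the high arrays, opposite in sign. *OsMADS3* had 0.09 and 0.41.

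The probe sets of 1 gene differed in this pattern. *OsMADS14* had 4 probe sets, of which the one with the suffix x_at gave the values above. The one with the suffix a_at read 14.4, 27.0 and 29.4 in MADS29_KD and 23.9, 16.9 and 25.3 in WT (low minus high −0.75, adjusted p = 0.128). A further probe set read 49.5, 61.2 and 49.2 in MADS29_KD and 53.8, 53.7 and 54.2 in WT (−0.08). The remaining probe set read 8.81, 9.11 and 10.2 in MADS29_KD and 10.9, 10.1 and 10.6 in WT (−0.11). The low arrays were the lowest of both groups on the x_at, a_at and remaining probe sets, and by far less on the last of them. *OsMADS15* had 0.29 (adjusted p = 0.10) on its brightest probe set, with the suffix a_at, and −0.51 (adjusted p = 0.084) on the one with the suffix s_at, so the direction turned within the gene. Differences between MADS29_KD and WT ran from −0.17 to 0.06 over the probe sets of *OsMADS14* and from −0.09 to 0.05 over those of *OsMADS15*. None was called in the fit without a block. With the 5′ actin signal as a block, only the x_at probe set of *OsMADS14* passed. The other probe sets of that gene had adjusted p of 0.128 to 0.847 with the block.

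**Figure D3:**
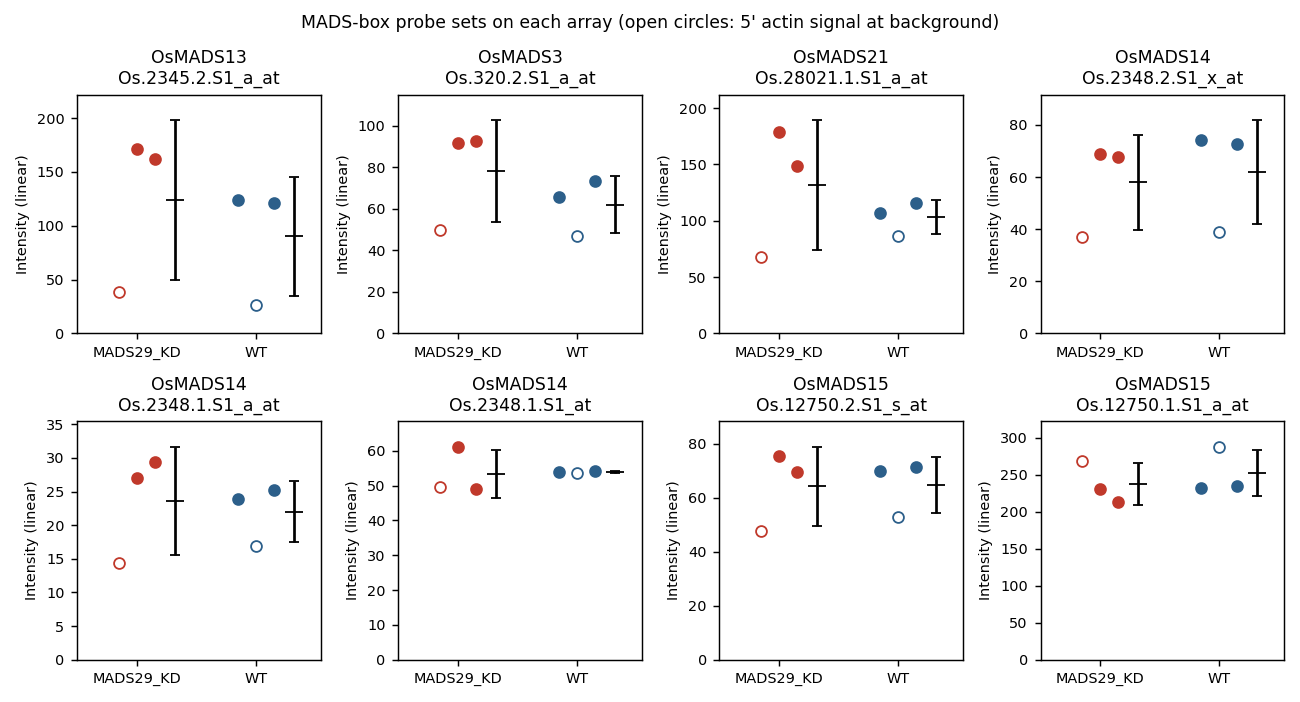
Intensity on a linear scale (vertical axes) of 8 probe sets of *OsMADS13*, *OsMADS3*, *OsMADS21*, *OsMADS14* and *OsMADS15*, with MADS29_KD arrays in red on the left, WT arrays in blue on the right, and the mean with its SD (n = 3) in black. Open circles are MADS29_KD replicate 1 and WT replicate 2, with the 5′ actin signal at background. They are the lowest of both groups in 6 of the panels, and the highest of both on the a_at panel of *OsMADS15*.

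Some members lie next to each other in the RefSeq annotation of assembly ASM3414082v1, namely *OsMADS14* with *OsMADS34*, and *OsMADS33* with *OsMADS13*. In each of these pairs 1 member was near or under the background level while the other was well above it. *OsMADS1* lies next to *DL*, a YABBY gene of carpel identity and leaf midrib growth. *DL* had intensities of 5.30, 6.07 and 8.76 in MADS29_KD and 9.13, 10.1 and 12.1 in WT, at background on 2 of the 3 MADS29_KD arrays and in the MADS29_KD mean. It did not pass the test (adjusted p = 0.144), and no fold is given for it. *OsMADS1* beside it had its higher values in MADS29_KD.

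Genes of 4 other lists were counted, chosen like the family itself with results of these data known. The lists covered floral organ and meristem identity, flowering time, nitrate response and nitrogen uptake, and the Polycomb group. Membership of a list does not mean that a gene acts with MADS-box factors. Of 149 names and aliases searched, 36 genes were found, of which 6 rose (16.7%) and 4 fell (11.1%), beside 10.9% and 14.8% of all genes. Their median log2 difference was 0.04, beside 0.01 over all genes. The risers numbered 8 with the 5′ actin signal as a block and 7 over the 4 arrays with high 5′ actin signal. The floral organ and meristem list held 10 genes, of which none rose and 1 fell. That was *FON1*, a receptor kinase that limits the floral meristem, with intensities of 37.9, 34.8 and 32.1 in MADS29_KD, against 57.3, 58.3 and 49.9 in WT. It was 0.66 ± 0.09 lower on the log2 scale (adjusted p = 0.0151), a call lost without MADS29_KD replicate 2 or WT replicate 1 (adjusted p up to 0.0669) and over the 4 arrays with high 5′ actin signal (0.0569). Of the rest of this list, 5 were at or under intensity 8 on all arrays.

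Of 12 flowering-time genes 1 rose and 2 fell, beside 10.9% and 14.8% of all genes. *SE5*, a heme oxygenase that makes the phytochrome chromophore, had intensities of 306, 306 and 299.8 in MADS29_KD, against 58.5, 72.9 and 68.4 in WT (4.58-fold higher). *GI*, a clock gene upstream of the photoperiod pathway, had 24.4, 32.1 and 27.8 in MADS29_KD, against 211, 196 and 194 in WT (−2.84 ± 0.11). *OsPRR37*, a clock-related repressor of flowering, was under the background level on all 3 MADS29_KD arrays (4.78, 6.64 and 4.59) and had 13.0, 19.1 and 13.1 in WT. It was at least 1.99-fold lower in MADS29_KD (adjusted p = 0.0203), taking the background level of each array as the bound. The *OsPRR37* call was lost without MADS29_KD replicate 1 or 3 or WT replicate 1 or 3 (adjusted p up to 0.0717), and over the 4 arrays with high 5′ actin signal (0.0844). *Hd3a*, a florigen gene named after its values were seen, had 35.4, 92.6 and 87.3 in MADS29_KD and 40.2, 24.5 and 40.7 in WT. It did not pass without a block (0.95, adjusted p = 0.225), but passed as higher in MADS29_KD with the 5′ actin signal as a block (adjusted p = 0.0321) and over the 4 arrays with high 5′ actin signal (1.15, adjusted p = 0.00585). The sources used here give no hour of harvest, and the MADS-box flowering-time members (*OsMADS50* and *OsMADS56*) were at or under intensity 8 on all arrays, each above the background level on 1 WT array.

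The list of nitrate response and nitrogen uptake held 13 genes, of which 5 rose and 1 fell, beside 10.9% and 14.8% of all genes. The gene that fell (*D14*, below) is not a gene of nitrogen uptake. *OsAMT1;1*, an ammonium transporter, had intensities of 28.9, 31.4 and 29.3 in MADS29_KD, against 7.50, 6.15 and 5.55 in WT, where its mean was at background, and was at least 4.20-fold higher (adjusted p = 0.00112). *NIA1*, a nitrate reductase, had 58.4, 44.0 and 50.4 in MADS29_KD, against 14.2, 18.2 and 14.4 in WT (log2 difference 1.71 ± 0.15, adjusted p = 0.00406). *OsGS2*, a plastid glutamine synthetase, had 97.4, 90.0 and 97.7 in MADS29_KD, against 70.9, 73.0 and 72.6 in WT (0.40 ± 0.04, adjusted p = 0.00513, and 0.0511 over the 4 arrays with high 5′ actin signal). The groups did not overlap for these 3 called genes, nor for 59.1% of all genes. The other risers, named after their values were seen, were *OsNLP1*, of a family of nitrate-responsive transcription factors (1.84 ± 0.21), and the cytosolic glutamine synthetase *OsGS1;2* (0.98 ± 0.10). *OsGS1;1*, another cytosolic glutamine synthetase named after its values were seen, did not pass without a block (0.50, adjusted p = 0.388) but passed as higher with the 5′ actin signal as a block (0.00942) and over the 4 arrays (0.46, adjusted p = 0.0433). *D14*, the strigolactone receptor, whose level in rice is known to be repressed by the ANR1-like factor *OsMADS57*, fell by 0.32 ± 0.06 (adjusted p = 0.0357) while *OsMADS57* was at background. The call for *D14* did not hold on leaving out each single array except WT replicate 2 (adjusted p up to 0.113), nor over the 4 arrays (0.0524). The list also held 5 genes at or under intensity 8 on all arrays. Named after their values were seen, they were *OsNRT2.2*, *OsNRT2.3*, *OsNAR2.2*, *OsAMT1;2* and *OsAMT2;1*.

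**Figure D4:**
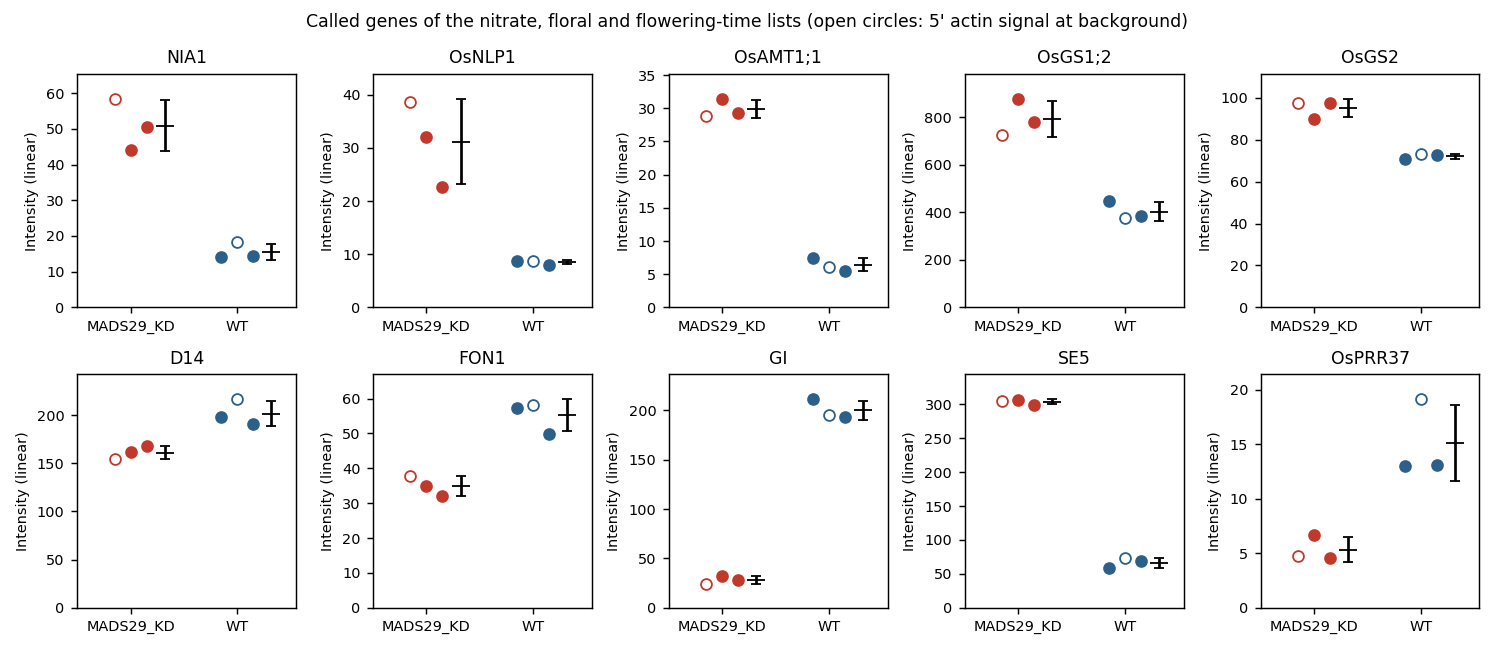
Intensity on a linear scale (vertical axes) of the 10 called genes of the nitrate, floral and flowering-time lists, with MADS29_KD arrays in red on the left, WT arrays in blue on the right, and the mean with its SD (n = 3) in black. Open circles mark the arrays with the 5′ actin signal at background. The groups did not overlap for any of the 10 genes, which were chosen for passing the test on these same arrays. *GI* was at 24.4 to 32.1 in MADS29_KD and 194 to 211 in WT.

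The Polycomb group, which silences MADS-box genes in many plant tissues, was represented by 1 gene. *SDG718* had intensities of 66.2, 66.0 and 64.4 in MADS29_KD and 54.6, 62.3 and 50.2 in WT. The groups did not overlap, and the log2 difference of 0.24 missed the threshold (adjusted p = 0.148).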

How the data were processed

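The authors deposited probe set intensity values on a linear scale for 6 Affymetrix arrays. Per the labels, Trizol was used to extract total RNA, and 500 ng of it went into biotin-labelled cRNA. The sources used here name no background correction, summarization or normalization, so any compression of low or high signals by them is carried into the differences. Values were not normalized again and were taken to log2. Of 57381 probe sets, 123 AFFX controls and 64 reporter probe sets were left out, and the other 57194 entered lmFit and eBayes of limma 3.58.1 (R 4.3.3) without a block. P-values were adjusted by Benjamini-Hochberg, with calls made under 0.05. The annotation paired 22436 probe sets with 1 gene, 17905 genes in all, and each gene was read from its brightest probe set. The spread of a log2 difference is the SE of the fit, and a range in parentheses after it is its 95% interval. Precision is limited by the number of arrays.

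Members and gene lists were chosen with earlier results of these data known, as were the background level and the 5′ actin classes. Every member was described, those with any array over intensity 8 with each value. From each other list up to 3 risers and 3 fallers by smallest adjusted p were named. List names that matched a wrong gene (7) were dropped. Where all arrays or the mean of a group lay at background, the fold of a called gene is a lower bound against that level. This bound leaves out the spread between arrays. The fit was tested on simulated data with independent noise, which leaves out the variation shared between the arrays with low 5′ actin signal. Whether the replicate numbers pair the arrays could not be decided. The alternatives were a replicate block, quantile normalization, median centring, a filter on dim probe sets, an intensity trend, array weights, the 5′ actin class as a block, the 4 arrays with alike 5′ actin signal, leaving out each array, every probe set, and a 2-fold minimum.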

Additional observations from a re-analysis of the deposited data

Results flagged for a closer look

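The poly-A control transcripts, which are added during preparation and lie outside the main measurement, averaged 4.90 to 5.68 on the log2 scale in MADS29_KD and 4.10 to 4.85 in WT, a mean difference of 0.8543 above the WT level.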

How the results depend on the processing

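The 6 called MADS-box genes remained called after median centring, the filter on dim probe sets, an intensity trend and array weights, and after quantile normalization, which added *OsMADS1*. They remained called without WT replicate 2, and without each other array all but *OsMADS7* did. With the replicate number as a block, the difference of *OsMADS29* was −1.96 (adjusted p = 0.0796), 1 MADS-box gene was higher (*OsMADS2*) and 0 lower, 2140 probe sets were called, against 6490 without the block, and 2 listed genes were higher. Deviations from the group means correlated at −0.54, −0.54 and 0.43 for replicates 1, 2 and 3. The highest value (0.68) was that of MADS29_KD replicate 1 with WT replicate 2, the 2 arrays with the 5′ actin signal at background. Because that signal is mixed into the values, they cannot decide whether the numbers pair the arrays. In the 4 arrays with alike 5′ actin signal 1 MADS-box gene was lower (*OsMADS29*) and 1 listed gene was lower. A 2-fold minimum left 1 MADS-box gene higher and 1 lower, with adjusted or unadjusted p. Leaving out 1 array gave 3596 (without WT replicate 3) to 5475 (without WT replicate 2) probe sets, with 3912 without WT replicate 1 and 4288 without MADS29_KD replicate 2, 1 to 4 listed genes lower (1 without WT replicate 1 and 2 without WT replicate 3, MADS29_KD replicate 1 or MADS29_KD replicate 2), and an *OsMADS29* difference of −2.17 to −1.82.

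Of the values for single members, 22 changed sign, none of them called. With array weights these were *OsMADS3* (−0.0017), *OsMADS13* (−0.4966), *OsMADS15* (0.0423), *OsMADS16* (−0.0301), *OsMADS21* (−0.1493), *OsMADS22* (0.0113) and *OsMADS55* (−0.0282), after median centring *OsMADS17* (−0.0099), and in the 4 arrays *OsMADS55* (−0.1167). Leaving out 1 array gave ranges across 0 for *OsMADS13* (−0.2648 to 1.1788), *OsMADS14* (−0.3970 to 0.2029), *OsMADS15* (−0.1778 to 0.0147), *OsMADS16* (−0.0043 to 0.1797), *OsMADS17* (−0.0871 to 0.0842), *OsMADS21* (−0.0304 to 0.6704), *OsMADS34* (−0.0009 to 0.0474) and *OsMADS55* (−0.0899 to 0.1623). The cause was not tested. A signal at or under intensity 8 limits what can be read for 10 members, of which 8 were at background on all arrays.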
